A study of Mus musculus with 12 samples.

Results

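The S100 genes encode small calcium-binding proteins that mostly work as dimers and act by docking onto other proteins when calcium rises. S100a10 is the exception, since its protein no longer binds calcium and instead forms a complex with annexin A2 that carries ion channels to the cell surface. In peripheral nerve S100b is best known as a glial protein, made by Schwann cells and satellite glia, whereas S100a10 is known from sensory neurons. The 8 genes described here are S100a1, S100a4, S100a6, S100a10, S100a11, S100a13, S100a16 and S100b. They were chosen by gene symbol from a count table of 14675 mouse genes, all 8 were found in it, and all 8 were among the 11343 genes that passed a filter on low counts.

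RNA came from adult dorsal root ganglion (DRG) material of RPL22HA+/+;Advillin-Cre+ mice. In these mice Cre under the Advillin promoter, which is active in sensory neurons, adds an HA tag to the ribosomal protein RPL22, so that an antibody against HA pulls down neuronal ribosomes with the mRNA they carry (RiboTag). The 4 groups were IP (the pull-down) after AAV-shGpr151 and AAV-e5'UTR, IP after AAV-shGpr151 alone, input (total RNA) after AAV-shGpr151 and AAV-e5'UTR, and input after AAV-shGpr151 alone. AAV-shGpr151 carries a short hairpin RNA against Gpr151, which all groups received, and the insert of AAV-e5'UTR (e5UTR from here on) is not described in the labels. The design text states that the mice had a sciatic nerve injury before culture of the neurons, while the protocol describes fresh ganglia, and which applies is not settled by the sources used here.

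Each group had 3 deposited columns, with nearly equal totals within a group. Totals were 1514948 to 1517685 estimated counts in IP with e5UTR, 1381220 to 1382261 in IP with shGpr151 alone, 975403 to 977366 in input with e5UTR and 984118 to 985277 in input with shGpr151 alone. The columns of a group differed by little more than counting noise (the median gene's chi-square was 1.08 to 1.12 times that from counting), so the 3 columns of each group were summed to give a single pool, which counts as 1 sample. Levels are CPM, that is counts scaled to a common library size after correction by trimmed mean of M-values (TMM), with exact Poisson 95% intervals. Intervals cover counting error only, because each group is 1 pool. PCR-amplified reads are not independent molecules, so the intervals may also be too narrow. In total RNA, fewer cells of a type and less RNA per cell cannot be told apart.

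**Figure D1:**
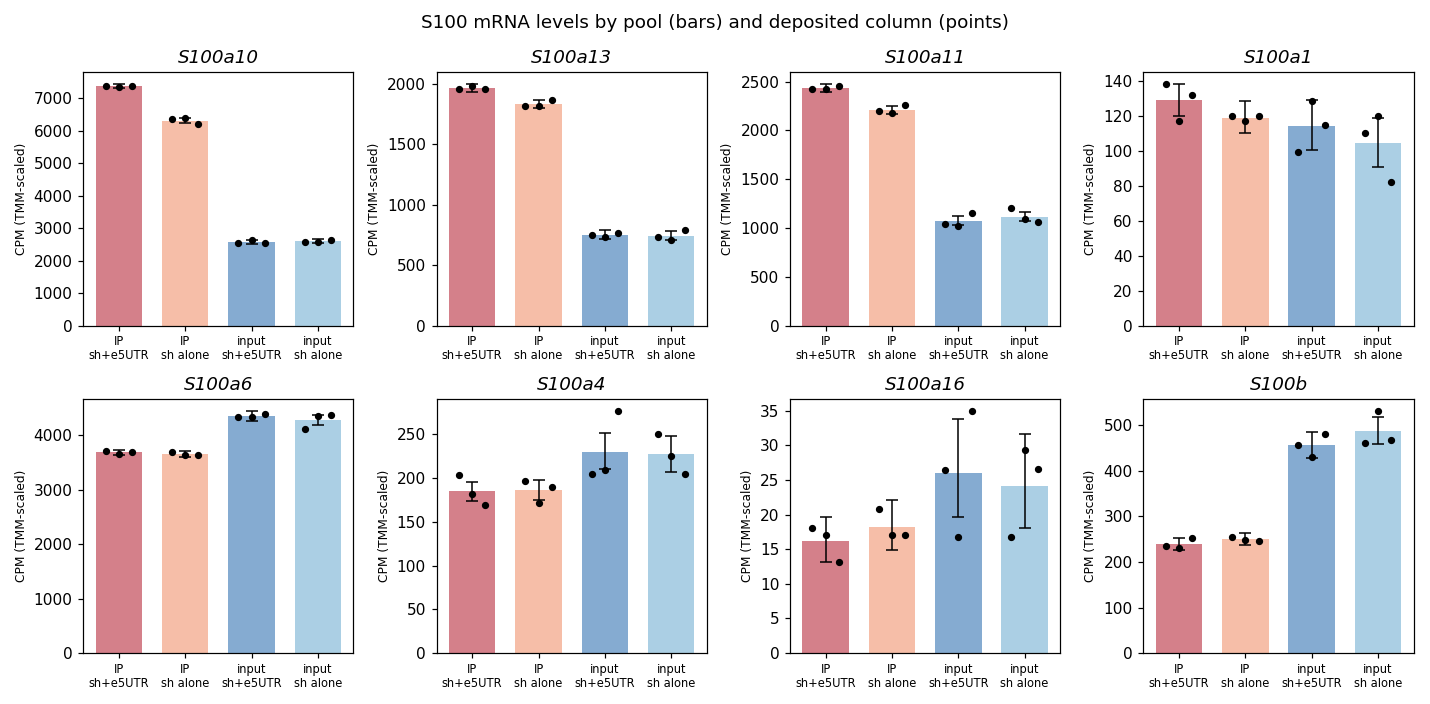
Level of each S100 gene in the 4 pools, in TMM-scaled CPM on a linear axis from 0. Bars are pools with exact Poisson 95% intervals and points are the 3 deposited columns. S100a10, S100a13 and S100a11 stand at least 1.98 times higher in each IP pool than in the input pool of the same treatment, and S100b is the member with the lowest IP level relative to input.

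Setting IP against input asked which S100 mRNAs the tagged neuronal ribosomes carried. S100a10, S100a13 and S100a11 were higher in IP by 2.64-fold, 2.54-fold and 2.12-fold. S100b was lower, at 0.519 times the input level. S100a4 and S100a16 were also called lower, by small differences whose calls depended on the settings, while S100a6 and S100a1 did not pass the test. Thus 3 members were higher and 3 lower by edgeR's quasi-likelihood test on the 4 pools with Benjamini-Hochberg adjustment, against 28% of all tested genes higher and 32.2% lower. The members' median log2 ratio was -0.02 and that of all tested genes 0.05.

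S100a10, also called p11, binds annexin A2 and escorts sensory channels such as Nav1.8 to the membrane. It had 15091, 15047 and 15086 counts in the columns of IP with e5UTR, 11930, 11994 and 11671 in IP with shGpr151 alone, 1826, 1882 and 1824 in input with e5UTR, and 1860, 1852 and 1894 in input with shGpr151 alone. The pools stood at 7373 CPM (95% interval 7305 to 7441) and 6316 CPM (6251 to 6382) in IP, against 2574 CPM (2507 to 2643) and 2606 CPM (2538 to 2675) in input. Both IP pools lay far above both input pools, and the 2 input pools were alike. The log2 ratio of IP to input was 1.40 ± 0.11 (SE, 2 pools per fraction, edgeR adjusted p = 4.2e-07), higher than that of 85.3% of tested genes.

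S100a13 is known for the release of FGF1 from cells without a signal peptide. Its columns held 3996, 4044 and 3991 counts in IP with e5UTR, 3407, 3414 and 3499 in IP with shGpr151 alone, 536, 524 and 551 in input with e5UTR, and 526, 510 and 567 in input with shGpr151 alone. This gave 1961 and 1831 CPM in the IP pools, against 750 and 745 CPM in the input pools. The log2 ratio was 1.34 ± 0.10 (edgeR adjusted p = 3.9e-07), close to that of S100a10.

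S100a11 binds annexin A1 and is known in membrane repair and growth control. Its pools stood at 2437 CPM (2398 to 2476) and 2211 CPM (2172 to 2250) in IP, against 1075 CPM (1032 to 1120) and 1117 CPM (1072 to 1162) in input. Once scaled, the lowest column of IP stood at 2178 CPM (4091 counts) and the highest column of input at 1203 CPM (863 counts). The log2 ratio was 1.08 ± 0.11 (edgeR adjusted p = 3.0e-06).

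S100b, best known from glia, had 482, 471 and 516 counts in the columns of IP with e5UTR and 478, 466 and 464 in IP with shGpr151 alone. It had 327, 309 and 345 in input with e5UTR, and 331, 381 and 336 in input with shGpr151 alone. Once scaled, the IP pools stood at 239 CPM (227 to 252) and 250 CPM (237 to 263), against 456 CPM (428 to 486) and 487 CPM (458 to 518) in the input pools. The fractions did not overlap on this scale, and the log2 ratio was -0.95 ± 0.11 (edgeR adjusted p = 1.4e-05). Scaled by library total, S100b stood at 323 and 340 CPM in IP, against 335 and 355 CPM in input, with a log2 ratio of -0.06 (edgeR adjusted p = 0.65).

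S100a6 (calcyclin), which binds the calcyclin-binding protein CacyBP and annexin A11, was abundant in both fractions. Its pools held 3686 CPM (3638 to 3734) and 3650 CPM (3600.0 to 3700.0) in IP, against 4348 CPM (4260.3 to 4437) and 4273 CPM (4186 to 4361) in input. The log2 ratio of -0.23 ± 0.10 did not pass (edgeR adjusted p = 0.057). It passed with the 12 columns taken as samples (-0.24, edgeR adjusted p = 1.6e-13), but that p measures only the spread between columns. In that fit 3 members were higher and 4 lower, against 38.7% and 38% of all genes. S100a4 (metastasin), a partner of non-muscle myosin and a common fibroblast marker, stood at 185 and 186 CPM in IP, against 230 and 227 CPM in input. Its log2 ratio was -0.30 ± 0.11 (edgeR adjusted p = 0.036), a call that ended with DESeq2 (log2 -0.31, adjusted p = 0.13) and without the input pool with e5UTR or that with shGpr151 alone (log2 -0.28 and -0.31, edgeR adjusted p = 0.32 and 0.28), where the ratio was about as large.

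S100a1 is best known from heart muscle, where it tunes calcium release and reuptake. It stood at 129 CPM (120.0 to 138) and 119 CPM (110.1 to 128) in IP, against 114 CPM (100.2 to 129) and 104 CPM (90.9 to 119) in input, and these intervals overlap. The log2 ratio was 0.18 ± 0.13 (edgeR adjusted p = 0.23). S100a16, a widely expressed member, was the least counted, with 99 and 103 counts in the IP pools and 56 and 52 in the input pools. That corresponds to 16.1 and 18.3 CPM in IP, against 26.1 and 24.2 CPM in input, and a log2 ratio of -0.55 ± 0.20 (edgeR adjusted p = 0.034). This call ended with DESeq2 (log2 -0.56, adjusted p = 0.2) and when any 1 pool was left out (log2 -0.62 to -0.35, edgeR adjusted p = 0.057 to 0.19).

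The sign of the middle members depends on the scaling. By library total the median log2 ratio of all tested genes moved to 0.94, so 56.7% of genes were called higher and 20.8% lower. On that scale 6 members were higher and 0 lower. S100a1 stood at 1.07, S100a6 at 0.66 and S100a4 at 0.59, each called higher, S100a16 at 0.34 (edgeR adjusted p = 0.14), and S100a10, S100a13 and S100a11 at 2.29, 2.23 and 1.98. S100a6, S100a4 and S100a16 thus changed sign, while S100a10, S100a13 and S100a11 were called higher on both. S100b was below 0 on both, but by library total it stood near 0 and was not called (-0.06, edgeR adjusted p = 0.65).

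**Figure D2:**
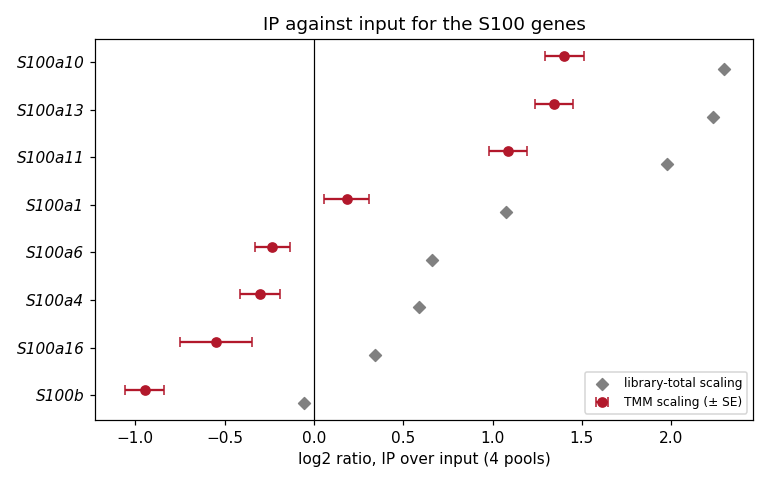
Log2 ratio of IP over input for each S100 gene from the fit of the 4 pools, ordered from the top by the ratio. Circles with bars are TMM-scaled values ± SE and diamonds are values scaled by library total. The change of scale moves all members up by nearly the same amount, from 1.40 to 2.29 for S100a10 and from -0.95 to -0.06 for S100b, so S100a6, S100a4 and S100a16 lie on different sides of 0.

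Ratios of counts between members need no scaling. For every S100b read there were 30.8 S100a10 reads (29.2 to 32.4) in IP with e5UTR and 25.3 (24.0 to 26.7) in IP with shGpr151 alone, against 5.64 (5.27 to 6.04) and 5.35 (5.01 to 5.72) in the input pools. The S100a10 to S100b ratio was thus 5.08-fold higher in IP, and the same measure was 4.89-fold for S100a13, 4.08-fold for S100a11, 2.19-fold for S100a1, 1.64-fold for S100a6, 1.56-fold for S100a4 and 1.32-fold for S100a16. With 2 pools per fraction the exact permutation test (two-sided) cannot go below p = 0.333, which each of these ratios reached. S100a10 to S100a6 likewise read 2.00 and 1.73 in IP, against 0.592 and 0.610 in input. The intervals of the IP pools and the input pools did not overlap for either ratio.

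The make-up of the S100 counts therefore differed between the fractions. S100a10 made up 46.0% (exact binomial 95% interval 45.7 to 46.3) and 43.3% (43.0 to 43.7) of the 8 genes' counts in IP, against 26.9% (26.3 to 27.5) and 27.2% (26.6 to 27.8) in input. S100a6 held 23.0% and 25.0% in IP, against 45.4% and 44.6% in input, so the most counted member was S100a10 in IP and S100a6 in input. S100b made up 1.49% and 1.71% in IP, against 4.77% and 5.08% in input. Together the 8 genes took 2.16% and 1.98% of all counts in the IP pools, against 0.70% in each input pool.

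**Figure D3:**
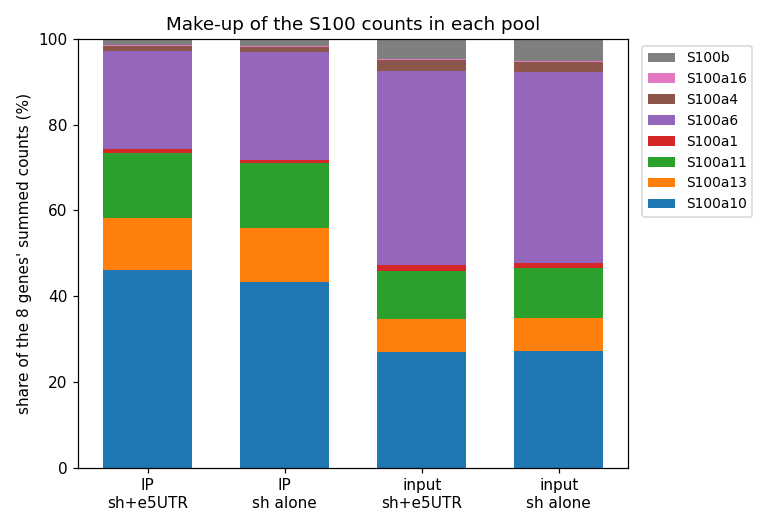
Share of each gene in the summed counts of the 8 S100 genes, in percent, for each pool. S100a10 takes 46.0% and 43.3% in the IP pools and 26.9% and 27.2% in the input pools, and S100a6 and S100b take smaller shares in IP than in input.

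By TMM scaling the ratio of IP to input lay on the same side of 1 for all 8 members with both viruses and with the hairpin alone. The intervals of S100a1 included 1 with e5UTR (1.13, 0.978 to 1.31) and with shGpr151 alone (1.14, 0.980 to 1.33). That of S100a16 included 1 with shGpr151 alone (0.756, 0.537 to 1.08). S100a10 was 2.86-fold higher in IP (95% counting interval 2.78 to 2.95) with e5UTR and 2.42-fold (2.36 to 2.49) with shGpr151 alone, and S100a13 was 2.62-fold (2.48 to 2.76) and 2.46-fold (2.33 to 2.59) higher. S100b stood at 0.525 (0.484 to 0.569) and 0.513 (0.473 to 0.556) times the input level. The intervals of the 2 treatments overlapped for every member except S100a10 and S100a11 (2.27-fold, 2.17 to 2.37, with e5UTR and 1.98-fold, 1.90 to 2.07, with shGpr151 alone). These ratios are between single pools and were not tested. The share of all tested genes whose intervals lay apart is not given here. Between the 2 IP pools, 61% of 630 genes with a mean pooled count of at least 1000 differed by 1.1-fold or more.

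The medians of both glial marker lists lay below the ratio of S100b. Of all tested genes 28% were higher in IP and 32.2% lower (56.7% and 20.8% by library total). Schwann cell markers had 11 of 15 tested members lower in IP and 0 higher, with a median log2 ratio of -2.01 (9 lower, 4 higher and a median of -1.12 by library total), and satellite glia markers had 6 of 10 lower and 1 higher, with a median of -1.98 (6 lower, 3 higher and -1.09 by library total). Apoe and Fabp7, abundant in satellite glia, stood at log2 -3.10 ± 0.14 and -2.68 ± 0.16, while Glul, also a satellite glia marker, was 3.94-fold higher. For every Apoe read there were 3.56 and 2.96 S100b reads in IP, against 0.682 and 0.774 in input. Apoe itself was among the markers with a low ratio.

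Neuronal markers had 10 of 15 members higher and 3 lower, with a median log2 ratio of 0.57 (12 higher, 0 lower and 1.46 by library total). The shares over all tested genes were 28% higher and 32.2% lower (56.7% and 20.8% by library total). Thy1, a surface protein of neurons, was 5.40-fold higher, which exceeds the ratio of any S100 member. For every read of Tubb3, the neuronal tubulin gene, there were 4.72 and 3.94 S100a10 reads in IP, against 5.93 and 6.09 in input. Against the same gene S100b had 0.153 and 0.156 reads in IP and 1.05 and 1.14 in input. S100a10 was thus 0.717 times, and S100b 0.141 times, as frequent per Tubb3 read in IP as in input (exact permutation p = 0.333 each). Tubb3 itself was among the markers with a high ratio (log2 1.88). The ratio of S100a10 lay below that of 5 of the 15 neuronal markers and above that of the other 10, such as Uchl1 (0.67) and Snap25 (-1.16), both chosen after their values were seen. The ratio of S100b lay below that of 13 of the 15. The summed level of the Schwann cell markers was 284 and 308 CPM in IP, against 1226 and 1175 CPM in input, with Ncmap at 0 counts in both IP pools. Of this sum, Pmp22, a myelin gene chosen after its values were seen, held 190 and 208 CPM in IP, against 207 and 204 CPM in input (log2 -0.04, edgeR adjusted p = 0.76, but 0.85 and adjusted p = 3.7e-05 by library total). The other 14 markers summed to 94.6 and 100.1 CPM in IP, against 1019 and 971 CPM in input. That of the satellite glia markers was 286 and 302 CPM in IP, against 1548 and 1490.4 CPM in input. The part of such other RNA in the level of S100b or of any other member in IP was not tested.

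Fibroblast markers, relevant to S100a4, had 6 of 9 tested members lower and 0 higher in IP, with Dcn at log2 -4.14 ± 0.19 (4 lower and 3 higher by library total). Their summed level was 506 and 397 CPM in IP, against 1714 and 1764 CPM in input. Macrophage markers had 8 of 11 lower and 0 higher (5 lower and 3 higher by library total), with a summed level of 97.5 and 91.4 CPM in IP, against 215 and 217 CPM in input. Beside both lists, 32.2% of all tested genes were lower and 28% higher (20.8% and 56.7% by library total). The part of fibroblast or macrophage RNA in the levels of S100a4 or the other members was not tested.

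**Figure D4:**
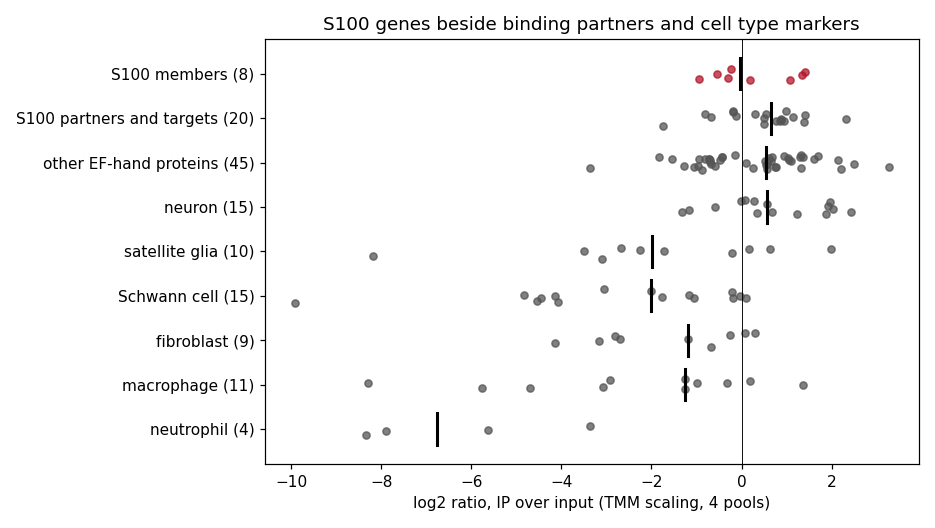
Log2 ratio of IP over input (TMM scaling, 4 pools) for each tested gene of the S100 members, their binding partners and targets, other EF-hand proteins and cell type markers, with the number tested in brackets. Vertical bars are medians, and points are spread up and down only for visibility. The S100 genes run from -0.95 to 1.40, above the medians of the Schwann cell (-2.01) and satellite glia (-1.98) markers. Values of genes with 0 counts in both IP pools depend on the fit's prior count.

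Of 26 listed partners and targets 20 were tested, 11 were higher and 3 lower, with a median log2 ratio of 0.66 against 0.05 for all tested genes (15 higher, 0 lower and 1.54 against 0.94 by library total). Among all tested genes 28% were higher and 32.2% lower (56.7% and 20.8% by library total). Anxa2, the annexin bound by S100a10, had 5539 and 4482 counts in IP and 1296 and 1277 in input, a log2 ratio of 0.51 ± 0.11 (edgeR adjusted p = 0.0019). There were 8.16 and 7.94 S100a10 reads for every Anxa2 read in IP, against 4.27 and 4.39 in input. Ahnak, a giant scaffold protein that binds the S100a10 and annexin A2 complex, was lower at -0.67 ± 0.14 (edgeR adjusted p = 0.0013, but 0.22 and adjusted p = 0.16 by library total). Scn10a, which encodes the channel Nav1.8, had 116 and 146 counts in IP and 5 and 14 in input, the largest ratio in the list (log2 2.33 ± 0.37).

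Fgf1, the growth factor released with S100a13, was 2.62-fold higher in IP (log2 1.39 ± 0.21, edgeR adjusted p = 0.00011). The count ratio of S100a13 to Fgf1 was 52.1 (45.7 to 59.6) and 55.2 (47.8 to 64.1) in IP, against 53.7 (37.5 to 79.9) and 57.3 (39.5 to 86.4) in input, and all 4 intervals overlap. Anxa1, the annexin of S100a11, did not pass (log2 0.30 ± 0.15), nor did Anxa11, a partner of S100a6 with 35 and 46 counts in IP and 10 and 6 in input (0.89 ± 0.41). Cacybp, the other S100a6 partner, was lower (-0.82 ± 0.16, edgeR adjusted p = 0.00099), but stood at 0.07 by library total (adjusted p = 0.71). The remaining list members with the largest ratios were Smarca4, Capza1 and Sugt1 (log2 1.41, 1.14 and 0.99). Stk38, a kinase activated by S100b, was the lowest (-1.74 ± 0.39), on 13 and 21 counts in IP and 24 and 18 in input. By library total Stk38 stood at -0.86 and was not called (edgeR adjusted p = 0.060).

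Other EF-hand proteins, which share the calcium-binding fold with the S100 family, had 18 of 45 higher and 16 lower. The shares of all tested genes were 28% and 32.2%. Their median log2 ratio was 0.55. By library total 28 were higher and 2 lower, against 56.7% and 20.8% of all tested genes, with a median of 1.44 for the list. Cabp7, a calmodulin-like protein, led at 3.27 ± 0.51, on 58 and 51 counts in IP and 1 and 3 in input. Capns1, the small calpain subunit, followed at 2.50 ± 0.13, with Efhd2 at 2.21 ± 0.29 and the calpain Capn1 at 2.15 ± 0.32. Kcnip2, a potassium channel subunit, was the lowest (-3.36 ± 0.55, on 2 and 3 counts in IP and 11 and 9 in input), and the calpain Capn2 stood at -1.83 ± 0.15. Cabp7 passed the filter on low counts through its IP counts alone, and Kcnip2 through its input counts alone. The direction of these 2 genes was thus set by the filter.

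Of 10 other S100 family symbols 6 had a row in the table, and 4 of these were tested. S100a8 and S100a9 encode the subunits of calprotectin, a protein of neutrophils. S100a9 had 2 and 0 counts in the IP pools, against 93 and 104 in the input pools. It was at least 90.8-fold lower in IP with shGpr151 alone, taking 3 counts per pool as the floor, and stood at 0.00754 times the input level with e5UTR (0.000899 to 0.028). S100a8 was also lower, by less, with 196 and 203 counts in IP and 287 and 266 in input (32.0 and 36.0 CPM, against 134 and 124 CPM) and a log2 ratio of -1.92 ± 0.14 (edgeR adjusted p = 2.1e-07). There were 98.0 (26.8 to 815) S100a8 reads per S100a9 read in IP with e5UTR, against 3.09 (2.43 to 3.94) and 2.56 (2.03 to 3.24) in the input pools. The neutrophil markers Ngp and Retnlg had 0 counts in both IP pools, against 21 and 22 and against 14 and 18 in input. All 4 tested neutrophil markers were lower, against 32.2% of all tested genes. Their summed level was 0.65 and 1.06 CPM in IP, against 45.1 and 44.2 CPM in input. These 4 passed the filter on low counts through their input counts alone. They could thus only come out lower, and their number is no separate result.

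S100a2 had 96 and 120 counts in IP and 160 and 172 in input, and was lower at log2 -2.07 ± 0.18 (edgeR adjusted p = 1.0e-06). S100a3 had 24 and 21 counts in IP and 6 in each input pool, and did not pass (0.45 ± 0.43). S100g, or calbindin-D9k, had 14 and 11 counts in IP and 1 and 2 in input, and S100a5 had 1 and 9 in IP and 4 and 0 in input. Both were below the filter and were not tested.

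The comparison of e5UTR with shGpr151 alone asked whether adding AAV-e5'UTR changed these mRNAs. Within IP no member differed by 1.5-fold or more, against 17.4% of all tested genes. S100a10 was 1.17-fold higher with e5UTR (95% counting interval 1.15 to 1.18), at 7373 CPM with e5UTR and 6316 CPM with shGpr151 alone. S100a11 was 1.10-fold higher (1.08 to 1.13) and S100a13 1.07-fold higher (1.04 to 1.10). The intervals of the other 5 members included 1, and ranged in their ratios from 0.883 for S100a16 (0.663 to 1.18) to 1.08 for S100a1 (0.976 to 1.20). S100b stood at 0.959 (0.890 to 1.03). Without column 3 of each group, with the TMM scaling set anew, the ratios were smaller. They stood at 1.09 for S100a10 (1.07 to 1.11), 1.05 for S100a11 (1.02 to 1.08) and 1.02 for S100a13 (0.989 to 1.06). S100a6 and S100b then had intervals below 1, at 0.950 (0.928 to 0.972) and 0.875 (0.799 to 0.958). The counts of S100a10 kept nearly the same proportion, at 30138 with e5UTR and 23924 with shGpr151 alone, against 45224 and 35595 with all columns. Those of S100a6 did too, at 15077 and 13754, against 22609 and 20569. For these genes the shift thus lay mainly in the scaling.

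These differences are between 1 pool and another and have no replicate check. Among 630 genes with a mean pooled count of at least 1000, 61% differed by 1.1-fold or more in either direction between the IP pools, and 5.08% between the input pools. Taking the 12 columns as samples, which compares these libraries and not the conditions, edgeR called S100a10, S100a11 and S100a13 (log2 0.23 ± 0.02, 0.15 ± 0.03 and 0.10 ± 0.03, adjusted p = 6.1e-10, 0.00034 and 0.0042) and 10.9% of all genes. Anxa2 stood at 1.14 (1.09 to 1.18) in the same comparison.

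Within input no member differed by 1.5-fold or more, against 24.7% of all tested genes, and the intervals of all 8 members included 1. S100a10 stood at 0.988 (0.951 to 1.03), S100a13 at 1.01 (0.938 to 1.08), S100a11 at 0.963 (0.909 to 1.02) and S100a6 at 1.02 (0.989 to 1.05). S100b stood at 0.937 (0.858 to 1.02). Without column 3 of each group the interval of S100a11 lay below 1 (0.908, 0.846 to 0.975). For S100a16, with 56 counts in input with e5UTR and 52 with shGpr151 alone, the interval ran from 0.726 to 1.60, so a difference of that size was not detectable at this depth. Over the 12 columns edgeR called 0 members, 0 had an unadjusted p under 0.05, and 0.198% of all genes were called. Whether the e5UTR ratio of S100a10 differed between IP and input was not tested.

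**Figure D5:**
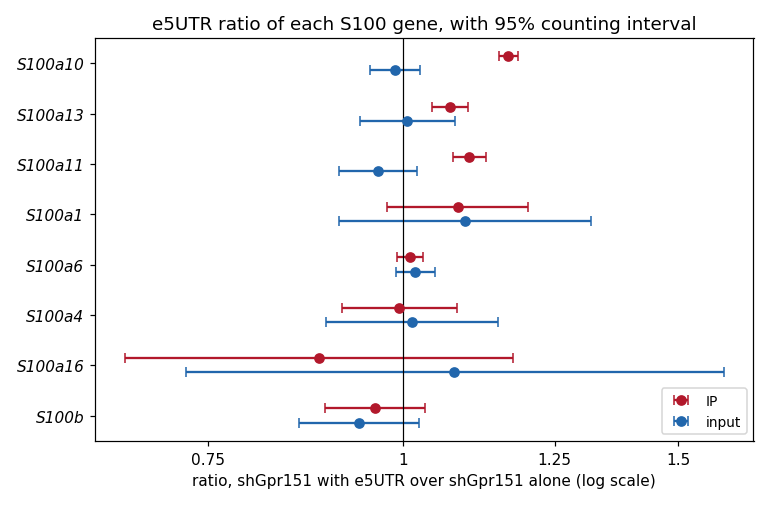
Ratio of shGpr151 with e5UTR over shGpr151 alone for each S100 gene, on a log axis, within IP and within input, with exact 95% counting intervals. In IP the intervals of S100a10, S100a13 and S100a11 lie above 1, at 1.17, 1.07 and 1.10, and in input every interval includes 1. All 3 columns of each group are summed here.

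The genes whose pattern over the 4 pools was most like that of S100a10 were Mapk3, Vim and S100a13, by the distance of centred log2 CPM (0.08, 0.09 and 0.11) among 1598 other genes with at least 100 counts in every pool. Mapk3 encodes the kinase ERK1, and Vim the intermediate filament vimentin. The nearest to S100b were Tpd52, Cbx5 and Cd9 (0.05, 0.06 and 0.08), of which Cbx5 encodes a heterochromatin protein and Cd9 a tetraspanin. Their log2 ratios of IP to input were -0.92, -0.98 and -0.94, beside -0.95 for S100b. With 4 pools in 2 fractions many genes share such a pattern.

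In the RefSeq annotation of another mouse build (GRCm38.p6), used here for gene order alone, 7 of the 8 genes lie on the same chromosome and S100b lies on another. S100a1 and S100a13 overlap there and are read in opposite directions. Whether strand was used in counting is not stated in the labels, so reads of these genes could have been exchanged. The S100a13 to S100a1 count ratio was 15.2 and 15.4 in IP, against 6.58 and 7.16 in input. Whether reads were exchanged was not tested.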

How the data were processed

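RNA of 12 samples was measured with Oxford Nanopore cDNA-PCR libraries, per the labels' protocols. The values are deposited estimated counts per gene in whole numbers, and the submitters' processing notes name minimap2, Salmon, GRCm39 and mm39, with no versions or roles. Counting settings, annotation and filters are not given in these sources, and the lowest row total was 13. A symbol was found for 13191 of 14675 gene IDs. Column totals ran from 975403 to 1517685.

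The columns of each group were summed into a pool. IP against input was tested with edgeR 4.0.16 (R 4.3.3): quasi-likelihood test, fraction as the only term, 4 pools, TMM, filterByExpr (minimum count 10, minimum total 15), Benjamini-Hochberg adjustment over 11343 genes, threshold 0.05. The 2 pools of a fraction differ in treatment, so the spread holds that difference. SEs are the log2 ratio over the root of F. Ratios between single pools have Clopper-Pearson 95% intervals. Alternatives were DESeq2 1.42.0, library-total scaling, other filters, a treatment term, the 12 columns with and without a replicate block, and leaving out columns or pools. The labels do not say that the samples of a group came from separate animals, so p-values over columns measure only the spread between columns.

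The members and all lists were chosen with earlier results of these data known. Named from each list were at most the 5 called genes with the highest and the 5 with the lowest ratio, fixed binding partners, every S100 row, and the 3 genes nearest in pattern to S100a10 and S100b (prior count 2). Some genes that fall under this rule are not reported here.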

Additional observations from a re-analysis of the deposited data

How the results depend on the processing

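S100a10, S100a13 and S100a11 were called higher in IP under every alternative run, and S100b was below 0 under every one and called lower under all except scaling by library total (-0.06). The other calls moved. Numbers of members higher and lower were 3 and 3, but 6 and 0 by library total, 3 and 1 with DESeq2, 3 and 1 with no filter on low counts, 4 and 1 with a mean pooled count of at least 100 (a filter that removes S100a16), 3 and 2 with treatment as a term, 3 and 4 over the 12 columns, and 3 and 1 without either input pool. Numbers over all genes moved with the setting as well. Of 11343 tested, 3178 were higher and 3652 lower, but 6433 and 2365 by library total and 1927 and 3053 with DESeq2. With a mean pooled count of at least 100 they were 1315 and 1257 of 3122 tested. With no filter they were 3408 and 3915 of 14675, and with treatment as a term 3237 and 3686 of 11343. Over the 12 columns they were 3125 and 3069 of 8085. Without the input pool with e5UTR they were 2506 and 3280 of 12878, and without that with shGpr151 alone 2534 and 3218 of 12863. Leaving out replicate column 1, 2 or 3 of every group gave 3 members higher each time and 1 to 4 lower. The cause was not tested. S100a4 was below the threshold of 0.05 only in part: its adjusted p was 0.13 with DESeq2 or no filter, 0.65 with the stricter filter, 0.065 with treatment as a term, 0.17 without replicate 3, 0.056 without the pool of IP with e5UTR and 0.32 and 0.28 without an input pool. S100a16 lost its call with DESeq2 (0.2), no filter (0.074), without replicate 2 or 3 (0.056 and 0.35) and without any 1 pool (0.057 to 0.19).

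Log2 ratios that changed sign by library total were those of S100a4 (0.59), S100a6 (0.66) and S100a16 (0.34), within treatments 0.56, 0.64 and 0.19 with e5UTR and 0.61, 0.67 and 0.50 with shGpr151 alone, and S100a6 stood at 0.012 with the stricter filter. By library total 6 members with e5UTR and 7 with shGpr151 alone had intervals above 1, against 3 each, and 3 to 4 when a replicate column was left out. The share of all tested genes with such intervals is not given here. In the fit of the 4 pools, 56.7% of all tested genes were called higher by library total, against 28% by TMM.

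Genes called were 6830 (3178 higher, 3652 lower), 8798 by library total (6433 and 2365), 4980 with DESeq2 (1927 higher), and 2572 with the stricter filter (1315 and 1257, fewer genes tested), and 5761 to 5828 without a replicate column (2625 to 2704 and 3057 to 3186). The replicate numbers did not pair the samples: correlations of same-numbered columns ran from -0.19 to 0.20, 2 of 18 were above 0.1, and 4 of 12 columns were most like their own number. With the number as a replicate block 6148 genes were called over the 12 columns, against 6194 without it, and 3 members were higher and 4 lower, as without it. No member differed by 1.5-fold with e5UTR under any alternative, with or without the block. Without replicate 3, where the TMM scaling was set anew, the log2 e5UTR ratios within IP moved. They were 0.13 for S100a10, 0.07 for S100a11 and 0.03 for S100a13, against 0.22, 0.14 and 0.10.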

Other observations

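The calpain genes were divided in IP against input. Capns1, the shared small subunit, had 1765 and 1627 counts in IP and 112 and 107 in input, and Capn1 had 98 and 97 in IP and 6 and 10 in input (edgeR adjusted p = 1.1e-08 and 0.00012). Capn2 had 345 and 236 counts in IP and 360 and 391 in input, and was lower (edgeR adjusted p = 8.5e-07). The directions were the same by library total, with log2 ratios of 3.39, 3.03 and -0.94.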
